A study of Mus musculus with 9 samples.

Results

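The tumour necrosis factor (TNF) superfamily was examined in 9 RNA-seq libraries of mouse bladder tumours. Members were the entries of the deposited gene table named Tnfrsf or Tnfsf with a number, together with Tnf, Lta, Ltb, Ltbr, Cd27, Cd40, Cd40lg, Cd70, Fas, Fasl and Ngfr; 1 further receptor gene with such a name is not analysed here. This gave 40 of 44806 entries: 22 receptors, 17 ligands and 1 antisense transcript, Tnfsf13os. Enough reads for a test were counted for 34 of them, 20 receptors, 13 ligands and the antisense transcript, within 16596 genes tested.

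The 3 groups were tumours treated with Lipo-TriTE, tumours treated with Lipo-BiTE and tumours given PBS (phosphate-buffered saline), with 3 libraries in each. All tumours, those given PBS included, derived from MB49, a mouse bladder carcinoma cell line, that overexpressed HER2. The series title names T cell nanoengagers that carry antibody fragments with lipid tags, molecules meant to bring T cells to tumour cells. Given in the labels are neither the antigens bound, the doses, the days nor the strain and age of the mice, and MB49 stands for 1 line only. Per the labels' protocols whole frozen tumours were homogenised, whereas the design text of the series speaks of sorted CD3+ T cells. Transcripts of tumour, fibroblast and myeloid cells were present in every library, so the values below are given as those of mixed tissue. Whether separate animals gave the libraries of one group is not stated, and the p-values measure the spread between these libraries.

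Ligands of this superfamily are trimers, mostly held in the cell membrane, that bind trimers of receptors on neighbouring cells or are shed. The receptors recruit TRAF adaptors and switch on the NF-kappaB transcription factors, and a few of them carry a death domain that can start apoptosis. In tumours the family is best known for the costimulatory receptors of activated T cells, for the TNF and lymphotoxin signals of inflammation and lymphoid tissue, and for the death ligands of cytotoxic lymphocytes.

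Library totals ran from 13152783 to 20273548 counts. The 40 members took 0.131% to 0.144% of the counts in Lipo-TriTE libraries, 0.105% to 0.161% in Lipo-BiTE libraries and 0.0745% to 0.0858% in PBS libraries. Levels are given as CPM, counts per 1000000 on totals scaled by TMM, and 3 counts, taken as the lowest level that could be resolved, were 0.145 to 0.236 CPM in a single library on this scale. A member was called higher or lower where the edgeR quasi-likelihood test gave an adjusted p under 0.05 over all genes tested.

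Against PBS tumours 19 of the 34 tested members were raised by both treatments. In Lipo-TriTE tumours 21 of 34 tested members rose and 4 fell, where 18.9% of all tested genes rose and 14.8% fell. In Lipo-BiTE tumours 21 rose and 0 fell, where 13.8% of all tested genes rose and 3.22% fell; at an unadjusted edgeR p under 0.05 the lower members numbered 2, Cd40 and Tnfrsf19, and DESeq2 called 0. The median log2 difference over the tested members was 1.76 for Lipo-TriTE over PBS and 1.78 for Lipo-BiTE over PBS, beside 0.003 and -0.023 over all tested genes. These comparisons share the 3 PBS libraries. Between the treatments 7 members were higher in Lipo-TriTE than in Lipo-BiTE tumours and 3 were lower, where 4.88% of all tested genes were higher and 5.21% lower.

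The members split by pattern. Those higher in Lipo-TriTE than in Lipo-BiTE tumours, Cd27, Cd40lg, Ltb, Tnfrsf18, Tnfrsf25, Tnfrsf4 and Tnfsf8, were also higher in both treatments than in PBS. A further 12 were higher than PBS in both treatments and were not called between them. Ltbr, Tnfrsf10b and Tnfrsf21 were lower in Lipo-TriTE tumours than in both other groups. Tnfrsf1a and Tnfrsf11a passed the test against PBS in Lipo-BiTE tumours alone, Tnfrsf8, Tnfsf13b and the lower Tnfrsf12a in Lipo-TriTE tumours alone, and 7 members passed in no comparison. None of the members of these one-sided patterns was called between the treatments.

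**Figure D1:**
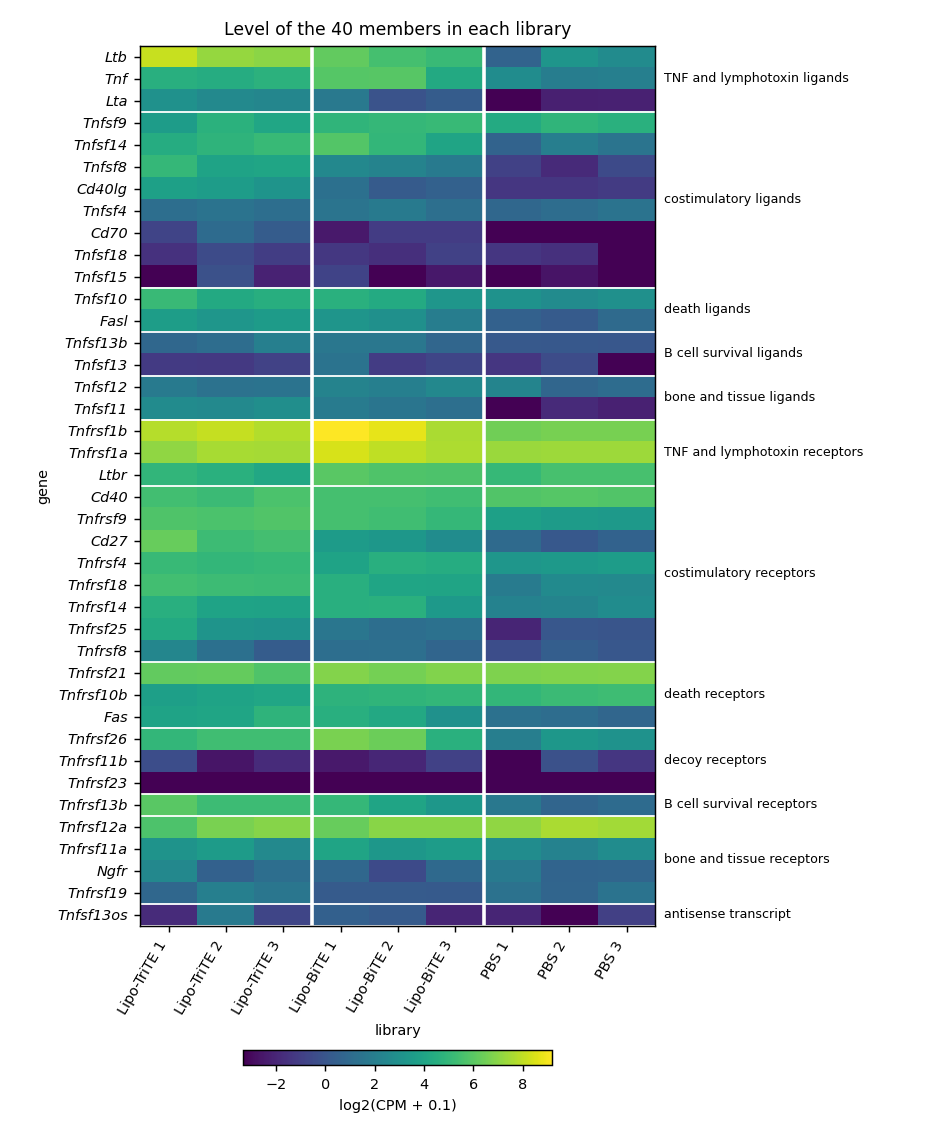
Level of the 40 members in each of the 9 libraries as log2(CPM + 0.1), with columns for Lipo-TriTE, Lipo-BiTE and PBS libraries 1 to 3 and rows grouped by role. The rows of Ltb, Cd27, Cd40lg and Tnfsf8 are brightest in the Lipo-TriTE columns, those of Tnfrsf1b and Tnfrsf26 in the first Lipo-BiTE column, and those of Tnfrsf12a and Tnfrsf10b in PBS columns.

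Cell type markers moved with the treatments as well. All 14 T cell markers, Cd3d, Cd3e and Trac among them, were higher in each of the 3 comparisons; their summed level was 1353 to 2386 CPM in Lipo-TriTE, 304.2 to 576.4 CPM in Lipo-BiTE and 62.4 to 74.3 CPM in PBS libraries. B cell markers summed to 524.7 to 1451 CPM in Lipo-TriTE, 20.2 to 45.6 CPM in Lipo-BiTE and 9.31 to 12.4 CPM in PBS libraries, and Cd79a and Cr2 were at 0 in PBS library 2. Of the B cell list 10 of 10 were higher in Lipo-TriTE than in PBS, 2 of 10 in Lipo-BiTE than in PBS, and 10 of 10 in Lipo-TriTE than in Lipo-BiTE. The 10 measured macrophage and monocyte markers all rose in both treatments, to sums of 832.8 to 980.1 CPM in Lipo-TriTE and 982.0 to 2285 CPM in Lipo-BiTE, against 127.9 to 193.9 CPM in PBS libraries.

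Dendritic cell markers summed to 287.1 to 370.4 CPM in Lipo-TriTE, 56.3 to 76.6 CPM in Lipo-BiTE and 24.8 to 33.6 CPM in PBS libraries, NK cell markers to 101.3 to 144.7, 47.0 to 83.8 and 17 to 18.9 CPM, and plasma cell markers to 821.3 to 1002, 518.9 to 1235 and 395.3 to 418.6 CPM in the same groups. Nearly all of the plasma cell sum in Lipo-BiTE and PBS libraries was Xbp1 and Sdc1. Sdc1 fell in both treatments, in Lipo-BiTE with a call lost in 6 of 16 alternative fits. Jchain averaged 258.1, 2.78 and 2.09 CPM and Mzb1 34.4, 0.247 and 0.568 CPM in Lipo-TriTE, Lipo-BiTE and PBS libraries. Both were called higher in Lipo-TriTE than in each other group and not between Lipo-BiTE and PBS. Of these 7 markers 6 rose in Lipo-TriTE and 3 in Lipo-BiTE tumours. All 7 neutrophil markers also rose in both treatments, with sums of 1449 to 4459 CPM in Lipo-TriTE, 1271 to 6675 CPM in Lipo-BiTE and 220.3 to 384.5 CPM in PBS libraries. Fibroblast markers summed to 922.8 to 1449 CPM in Lipo-TriTE, 1365 to 2306 CPM in Lipo-BiTE and 2065 to 3156 CPM in PBS libraries. Most of each sum was Col3a1, which fell 2.38-fold in Lipo-TriTE and was not called in Lipo-BiTE tumours (edgeR quasi-likelihood, adjusted p = 0.0031 and 0.12). In each treatment 4 of 7 fell, not all of them the same genes, beside 14.8% and 3.22% of all tested genes. Lum was at 0 in Lipo-BiTE libraries 1 and 2. Of the epithelial and tumour cell list 5 genes were in the table and 4 were tested; they summed to 373.8 to 619.8 CPM in Lipo-TriTE, 556.4 to 755.6 CPM in Lipo-BiTE and 844.1 to 904.9 CPM in PBS libraries. Nearly all of that sum was Krt8 and Krt18, keratins of simple epithelia, which fell 1.89-fold and 1.72-fold in Lipo-TriTE tumours and were not called in Lipo-BiTE tumours; the Krt18 call was lost without PBS library 2 (edgeR quasi-likelihood, adjusted p = 0.061). Cdh1, the epithelial cadherin of the same list, rose 9.27-fold in Lipo-TriTE and 6.20-fold in Lipo-BiTE (3.90-fold without Lipo-BiTE library 1), and Epcam was not called. In a bulk sample fewer cells of a type and less RNA per cell cannot be told apart, and the part of these markers in the members' differences was not tested.

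**Figure D2:**
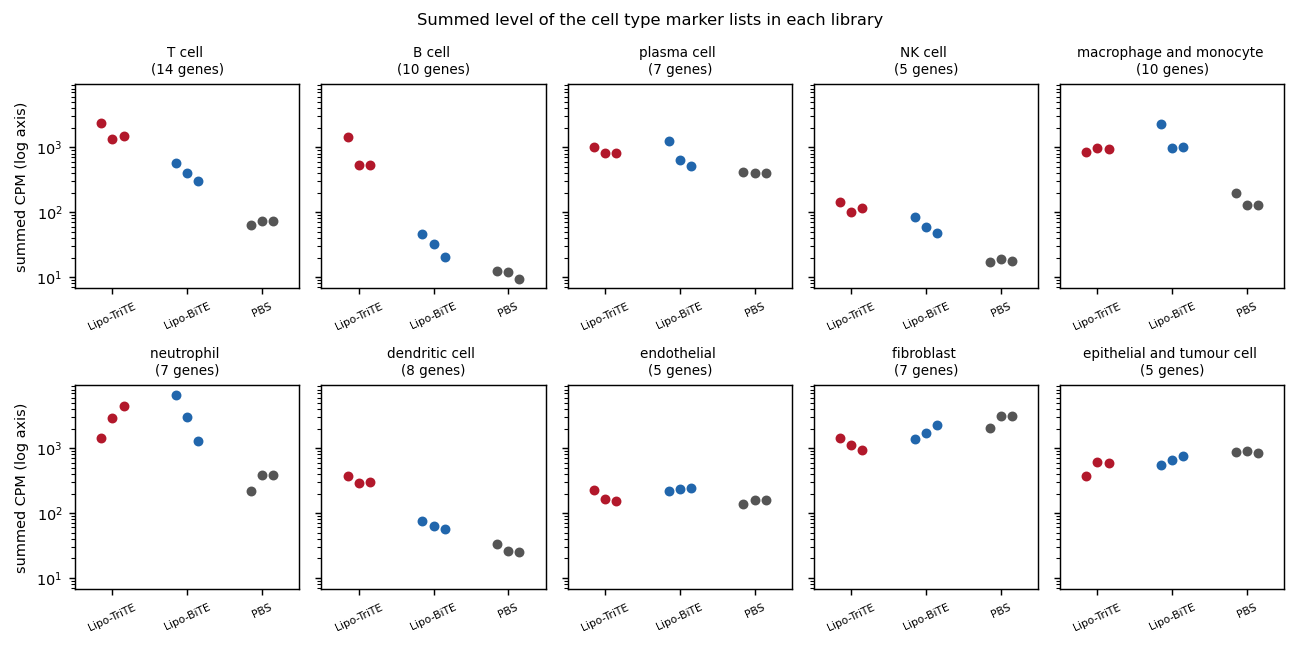
Summed CPM of 10 marker lists in each library on a log axis, with Lipo-TriTE in red, Lipo-BiTE in blue and PBS in grey, and 1 point per library. T cell sums descend from Lipo-TriTE over Lipo-BiTE to PBS without overlap, while macrophage and neutrophil sums are raised in both treatments and fibroblast sums are highest in PBS libraries 2 and 3.

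The ligands TNF, lymphotoxin alpha and lymphotoxin beta are encoded side by side within the major histocompatibility complex. TNF is made by macrophages and T cells, while lymphotoxins come from lymphocytes and, as a trimer of both kinds of chain, bind the lymphotoxin beta receptor. In the deposited C57BL/6NJ gene models Ltb spans positions 36688812 to 36690725 of chromosome 17, Tnf 36693785 to 36696411 and Lta 36697569 to 36699701, with 3059 bases between Ltb and Tnf and 1157 bases between Tnf and Lta. The assembly version of these models is not given in the sources used here.

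The promoters of these neighbours are shown because they lie within a short stretch and their genes differ in pattern between the treatments. They are the 250 bases before each start in RefSeq, build GRCm38.p6, on the strand of the gene, and capitals mark a match to the kappaB consensus, the sequence bound by NF-kappaB. Promoters were found in RefSeq for 30 of the 40 members.
Ltb, chr17:35194257-35194506, plus strand: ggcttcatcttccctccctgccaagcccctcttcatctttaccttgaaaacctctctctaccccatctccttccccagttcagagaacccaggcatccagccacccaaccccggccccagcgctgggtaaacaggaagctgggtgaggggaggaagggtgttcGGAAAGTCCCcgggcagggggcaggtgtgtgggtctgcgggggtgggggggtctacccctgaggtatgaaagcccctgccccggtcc
Tnf, chr17:35202008-35202257, minus strand: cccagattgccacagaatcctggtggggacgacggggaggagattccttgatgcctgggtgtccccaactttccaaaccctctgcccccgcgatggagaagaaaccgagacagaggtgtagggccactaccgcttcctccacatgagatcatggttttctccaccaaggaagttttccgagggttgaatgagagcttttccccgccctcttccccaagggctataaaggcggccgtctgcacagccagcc
Lta, chr17:35205352-35205601, minus strand: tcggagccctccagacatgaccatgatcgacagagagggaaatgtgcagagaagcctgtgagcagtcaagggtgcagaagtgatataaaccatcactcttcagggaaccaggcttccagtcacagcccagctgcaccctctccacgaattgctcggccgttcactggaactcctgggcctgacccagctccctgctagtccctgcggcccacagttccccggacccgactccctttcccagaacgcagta

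The kappaB consensus, searched on both strands, was matched once before Ltb, 87 to 78 bases before the start, and not in these windows of Tnf and Lta. It occurs in 7.25% of the 32851 RefSeq promoters of the same length. Among the 34 promoters of the 30 members it was matched in 4, those of Ltb, Tnfrsf25, Tnfrsf8 and Tnfrsf9. The AP-1 motif TGANTCA, searched in the same way, occurs in 6.75% of all promoters and in 6 of the 34 member promoters, of Fas, Tnfrsf8, Tnfrsf9, Tnfsf13, Tnfsf13b and Tnfsf14. A match is a run of letters and no evidence of binding.

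Ltb stood at 280.2, 148.1 and 131.4 CPM in Lipo-TriTE libraries 1 to 3, at 72.4, 45.7 and 36.1 CPM in Lipo-BiTE libraries and at 1.48, 9.19 and 6.46 CPM in PBS libraries. The 3 groups did not overlap. Lipo-TriTE was 32.2-fold higher than PBS (log2 5.01 ± 0.58 SE, edgeR quasi-likelihood, adjusted p = 2e-04), and Lipo-BiTE 8.87-fold higher than PBS (log2 3.15 ± 0.54, edgeR quasi-likelihood, adjusted p = 0.003). Lipo-TriTE was 3.63-fold higher than Lipo-BiTE (log2 1.86 ± 0.50, edgeR quasi-likelihood, adjusted p = 0.041). That last call was lost without Lipo-TriTE library 1, 2 or 3, without Lipo-BiTE library 2 or 3 or without PBS library 3, with folds of 2.78 to 4.15 and adjusted p of 0.058 to 0.14 in the same edgeR test. It was lost as well with a replicate block, which treats libraries of the same number as paired (adjusted p = 0.073), and with no filter on low counts (adjusted p = 0.18).

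Lta had 8.04, 5.95 and 5.24 CPM in Lipo-TriTE libraries, 3.23, 0.826 and 1.16 CPM in Lipo-BiTE libraries, and 0, 0.118 and 0.119 CPM in PBS libraries. Its PBS level rests on 4 reads in all, against 341 in Lipo-TriTE and 68 in Lipo-BiTE libraries. As a ratio of counts per total, Lipo-TriTE was 77.8-fold higher than PBS, with an exact 95% counting interval of 30.1 to 287.1, and Lipo-BiTE 20.2-fold higher, with an interval of 7.55 to 76.3. Both differences passed the edgeR quasi-likelihood test (adjusted p = 0.00023 and 0.0036), and the fitted Lipo-BiTE fold of 19.0 moved to 11 without Lipo-BiTE library 1. Lta was not called between Lipo-TriTE and Lipo-BiTE (log2 1.89 ± 0.55, edgeR quasi-likelihood, adjusted p = 0.053), although their libraries did not overlap. It was called in 6 of the 16 alternative fits (adjusted p = 0.006 to 0.048), and the fold of 3.69 moved to 6.30 without Lipo-BiTE library 1.

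Tnf had 23.9, 21.6 and 26.6 CPM in Lipo-TriTE libraries, 59.7, 62.4 and 19.5 CPM in Lipo-BiTE libraries, and 6.74, 3.83 and 4.15 CPM in PBS libraries. Lipo-BiTE libraries 1 and 2 lay above every other library, while Lipo-BiTE library 3 fell below the Lipo-TriTE range. Tnf rose 4.92-fold in Lipo-TriTE (log2 2.30 ± 0.41) and 9.67-fold in Lipo-BiTE tumours (log2 3.27 ± 0.42) over PBS (edgeR quasi-likelihood, adjusted p = 0.0021 and 0.00086). The difference between Lipo-TriTE and Lipo-BiTE, log2 -0.97 ± 0.38, was not called (edgeR quasi-likelihood, adjusted p = 0.13), and was opposite in sign to that of its neighbour Ltb.

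Tnfrsf1a, the widely expressed death domain receptor of TNF, had 141.1, 191.3 and 184.3 CPM in Lipo-TriTE libraries, 344.6, 258.0 and 202.8 CPM in Lipo-BiTE libraries and 159.3, 163.2 and 162.9 CPM in PBS libraries. Lipo-TriTE and PBS overlapped (log2 0.09 ± 0.19), and Lipo-BiTE was 1.66-fold higher than PBS (edgeR quasi-likelihood, adjusted p = 0.025). That call was lost without any 1 of the PBS libraries or without Lipo-BiTE library 1 or 2, at adjusted p of 0.063 to 0.093 in the edgeR test, and with the replicate block (adjusted p = 0.059).

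Tnfrsf1b, the TNF receptor of leukocytes and endothelium, had 225.7, 274.5 and 218.5 CPM in Lipo-TriTE libraries, 589.1, 425.2 and 194.8 CPM in Lipo-BiTE libraries and 90.3, 98.7 and 100.9 CPM in PBS libraries. Every treated library exceeded every PBS library. The rise was 2.48-fold in Lipo-TriTE and 4.17-fold in Lipo-BiTE tumours (edgeR quasi-likelihood, adjusted p = 0.0097 and 0.0018), and the treatments overlapped. Like Tnf, Tnfrsf1b was lowest in Lipo-BiTE library 3 within its group.

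Ltbr, the receptor of the lymphotoxin trimer and of LIGHT on stromal and myeloid cells, was lower in Lipo-TriTE than in PBS tumours, where Lta, Ltb and Tnfsf14 were higher. It had 29.9, 24.7 and 18.4 CPM in Lipo-TriTE libraries, 64.7, 53.3 and 51.9 CPM in Lipo-BiTE libraries and 34, 47.1 and 47.4 CPM in PBS libraries. Lipo-TriTE lay below both other groups, 1.76-fold lower than PBS (log2 -0.81 ± 0.21) and 2.32-fold lower than Lipo-BiTE (log2 -1.22 ± 0.21; edgeR quasi-likelihood, adjusted p = 0.012 and 0.0076). The difference of Lipo-BiTE from PBS, log2 0.40 ± 0.21, was not called (edgeR quasi-likelihood, adjusted p = 0.2), and every Lipo-BiTE library lay above every PBS library.

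All 8 costimulatory receptors were tested; 7 rose in Lipo-TriTE and 6 in Lipo-BiTE tumours over PBS, and 4 were higher in Lipo-TriTE than in Lipo-BiTE tumours, beside 18.9%, 13.8% and 4.88% of all tested genes. Cd27, carried by resting and memory T cells and by B cell subsets, led them. It had 78.6, 38.4 and 44.6 CPM in Lipo-TriTE libraries, 11.6, 9.91 and 6.68 CPM in Lipo-BiTE libraries and 1.93, 1.00 and 1.42 CPM in PBS libraries, with no overlap between groups. Lipo-TriTE was 37.4-fold higher than PBS (log2 5.23 ± 0.38), Lipo-BiTE 6.51-fold higher than PBS (log2 2.70 ± 0.37) and Lipo-TriTE 5.74-fold higher than Lipo-BiTE (log2 2.52 ± 0.32; edgeR quasi-likelihood, adjusted p = 1.9e-05, 0.00091 and 0.0021). All 3 calls held in each of the 16 alternative fits. The gene model of Cd27 overlaps Vamp1 on the opposite strand, and without a stated strand setting their reads cannot be told apart there.

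Tnfrsf25, the death domain receptor of TL1A on T cells, had 19.7, 8.99 and 8.28 CPM in Lipo-TriTE libraries, 2.91, 2.18 and 2.47 CPM in Lipo-BiTE libraries and 0.148, 0.942 and 0.889 CPM in PBS libraries. The groups were again apart, with Lipo-TriTE 18-fold and Lipo-BiTE 3.69-fold higher than PBS and Lipo-TriTE 4.89-fold higher than Lipo-BiTE (edgeR quasi-likelihood, adjusted p = 0.00037, 0.039 and 0.018). The rise in Lipo-BiTE was lost without Lipo-TriTE library 2 or any 1 of the 6 Lipo-BiTE and PBS libraries (folds 2.72 to 4.58, adjusted p 0.052 to 0.11), with the 2 groups alone (adjusted p = 0.067) and with the replicate block (adjusted p = 0.082). The difference between treatments was lost without Lipo-TriTE library 1 (3.48-fold) or Lipo-BiTE library 2 (4.52-fold).

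Tnfrsf18, known as GITR and abundant on regulatory and activated T cells, had 42.3, 37.9 and 37.2 CPM in Lipo-TriTE libraries, 23.6, 16.2 and 15.7 CPM in Lipo-BiTE libraries and 3.56, 6.30 and 5.87 CPM in PBS libraries. Its neighbour on chromosome 4, Tnfrsf4, which is OX40 of activated T cells and ends 11671 bases before Tnfrsf18 starts, had 34.6, 31.4 and 33.0 CPM in Lipo-TriTE libraries, 15.5, 23.6 and 21.2 CPM in Lipo-BiTE libraries and 9.41, 10.5 and 12.2 CPM in PBS libraries. Both genes descended from Lipo-TriTE over Lipo-BiTE to PBS with no overlap of libraries.

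Tnfrsf18 was 7.42-fold higher in Lipo-TriTE than in PBS tumours, 3.51-fold higher in Lipo-BiTE than in PBS tumours and 2.12-fold higher in Lipo-TriTE than in Lipo-BiTE tumours (edgeR quasi-likelihood, adjusted p = 4e-05, 0.00092 and 0.019). Without Lipo-BiTE library 2 the last of these was 1.97-fold and not called (adjusted p = 0.097). For Tnfrsf4 the same folds were smaller, 3.08, 1.88 and 1.64 (edgeR quasi-likelihood, adjusted p = 0.00022, 0.0096 and 0.042). Its rise in Lipo-BiTE was not called without Lipo-BiTE library 2 (1.71-fold), and its difference between treatments was not called when any library but PBS 1 was left out (1.44- to 1.77-fold), with the 2 groups alone or with the replicate block (adjusted p = 0.058 in both). Gm16008, an antisense entry, overlaps Tnfrsf18 on the opposite strand and held 352 reads in all.

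Tnfrsf9, the receptor 4-1BB that T and NK cells raise on activation, had 54.7, 50.7 and 55.8 CPM in Lipo-TriTE libraries, 45.7, 41.2 and 32.8 CPM in Lipo-BiTE libraries and 13.6, 11.8 and 10.4 CPM in PBS libraries. It rose 4.50-fold in Lipo-TriTE (log2 2.17 ± 0.18) and 3.34-fold in Lipo-BiTE tumours (log2 1.74 ± 0.18) over PBS (edgeR quasi-likelihood, adjusted p = 3.1e-05 and 0.00076). The treatments did not overlap, and their difference was not called (log2 0.43 ± 0.17, edgeR quasi-likelihood, adjusted p = 0.13). The gene lies opposite to Camta1 in the annotation. One of its RefSeq starts is shown because both motifs, matched together only here and before Tnfrsf8 among the members, lie close to it; capitals mark a stretch with 3 overlapping kappaB matches, 43 to 33 bases before the start, and an AP-1 match 15 to 9 bases before it.
Tnfrsf9, chr4:150927749-150927998, plus strand: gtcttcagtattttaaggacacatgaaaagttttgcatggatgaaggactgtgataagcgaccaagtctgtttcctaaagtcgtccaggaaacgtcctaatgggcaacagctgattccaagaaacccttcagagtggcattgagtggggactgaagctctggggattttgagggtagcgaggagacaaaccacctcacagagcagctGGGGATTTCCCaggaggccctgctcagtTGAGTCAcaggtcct

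Tnfrsf14, the herpesvirus entry mediator of lymphocytes and other cells, had 23.7, 15.1 and 14.9 CPM in Lipo-TriTE libraries, 23.7, 24.5 and 10.5 CPM in Lipo-BiTE libraries and 4.59, 5.01 and 6.82 CPM in PBS libraries. It rose 3.27-fold in Lipo-TriTE and 3.56-fold in Lipo-BiTE tumours (edgeR quasi-likelihood, adjusted p = 0.0034 and 0.0041), and the treatments overlapped. Tnfrsf8, the CD30 receptor of activated lymphocytes, was low, at 5.33, 2.41 and 1.16 CPM in Lipo-TriTE libraries, 2.21, 2.25 and 1.60 CPM in Lipo-BiTE libraries and 0.667, 1.24 and 0.949 CPM in PBS libraries. Its 3.11-fold rise in Lipo-TriTE (edgeR quasi-likelihood, adjusted p = 0.045) rested on overlapping libraries. It was not called when any library but Lipo-TriTE 3 was left out, and was 1.88-fold without Lipo-TriTE library 1; the 2 groups alone (adjusted p = 0.075) and the replicate block (adjusted p = 0.097) lost it too.

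Cd40, the receptor of B cells, dendritic cells and macrophages, did not follow the other costimulatory receptors. It had 42.0, 36.7 and 51.0 CPM in Lipo-TriTE libraries, 45.6, 45.6 and 40.8 CPM in Lipo-BiTE libraries and 56.6, 59.3 and 56.6 CPM in PBS libraries. Every treated library lay below every PBS library, yet neither the difference of Lipo-TriTE (log2 -0.41 ± 0.15) nor that of Lipo-BiTE (log2 -0.39 ± 0.15) passed the edgeR quasi-likelihood test (adjusted p = 0.055 and 0.1).

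**Figure D3:**
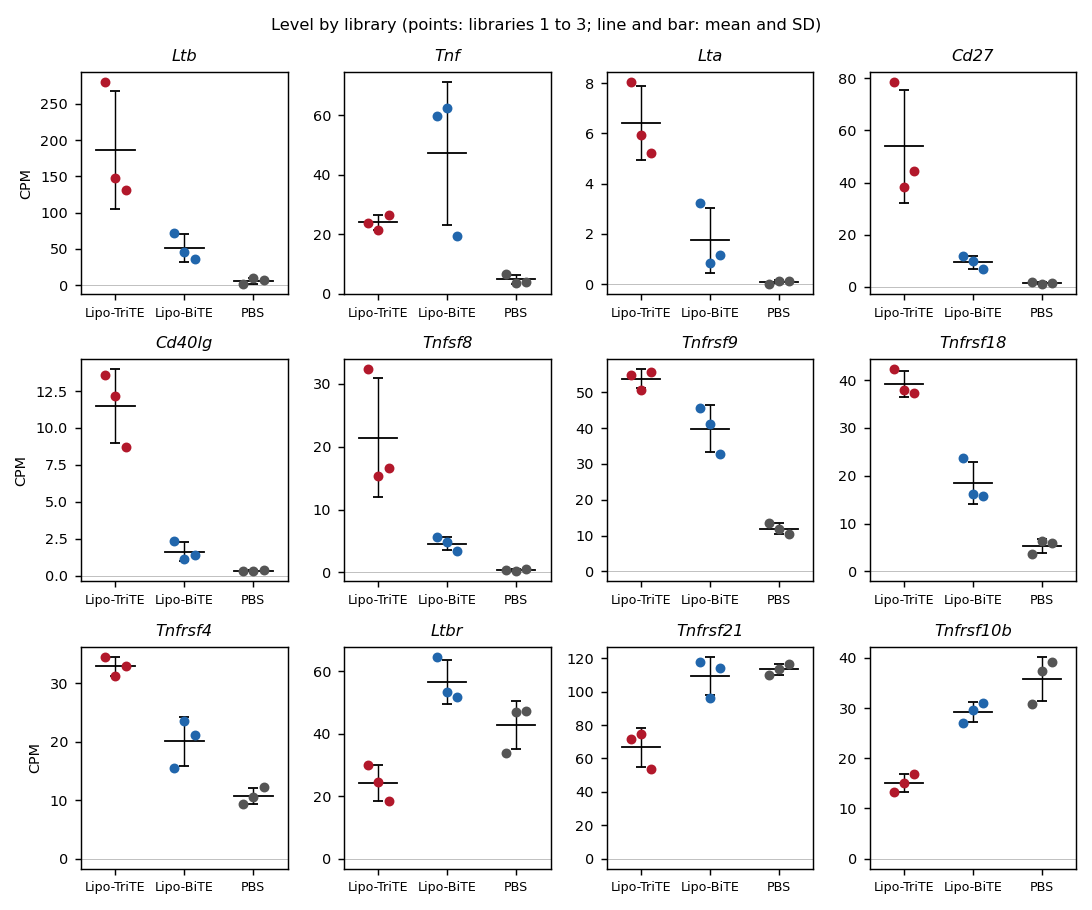
CPM of 12 members in each library, with groups Lipo-TriTE, Lipo-BiTE and PBS from left to right on linear axes that start at or below 0; points are libraries 1 to 3, and the line and bar are the mean and SD of 3 libraries. Cd27, Cd40lg and Tnfsf8 step down from Lipo-TriTE over Lipo-BiTE to PBS, Tnf is highest in Lipo-BiTE libraries 1 and 2, and Ltbr, Tnfrsf21 and Tnfrsf10b are lowest in Lipo-TriTE libraries.

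Of the 8 costimulatory ligands 5 were tested, and 3 rose in each treatment over PBS, beside the same 18.9% and 13.8% of all tested genes. Cd40lg, shown by activated helper T cells to CD40-bearing cells, had 13.6, 12.2 and 8.73 CPM in Lipo-TriTE libraries, 2.36, 1.13 and 1.38 CPM in Lipo-BiTE libraries and 0.296, 0.295 and 0.356 CPM in PBS libraries. Lipo-TriTE was 35.5-fold higher than PBS (log2 5.15 ± 0.43), Lipo-BiTE 5.01-fold higher than PBS (log2 2.33 ± 0.43) and Lipo-TriTE 7.07-fold higher than Lipo-BiTE (log2 2.82 ± 0.36; edgeR quasi-likelihood, adjusted p = 3.2e-05, 0.0039 and 0.0021). The groups were well apart, and 7.07-fold was the largest fold between the treatments among the tested members.

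Tnfsf8, the CD30 ligand, had 32.3, 15.4 and 16.6 CPM in Lipo-TriTE libraries, 5.59, 4.80 and 3.41 CPM in Lipo-BiTE libraries and 0.444, 0.177 and 0.593 CPM in PBS libraries. It was 52.3-fold higher in Lipo-TriTE and 11.2-fold higher in Lipo-BiTE than in PBS tumours, and 4.66-fold higher in Lipo-TriTE than in Lipo-BiTE tumours (edgeR quasi-likelihood, adjusted p = 3.3e-05, 0.00091 and 0.0074). Lipo-TriTE library 1 was the highest of all libraries for Tnfsf8, as it was for Cd27, Ltb and Tnfrsf25.

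Tnfsf14, or LIGHT, a ligand of HVEM and the lymphotoxin beta receptor, had 21.9, 28.2 and 35.2 CPM in Lipo-TriTE libraries, 58.4, 30.9 and 15.9 CPM in Lipo-BiTE libraries and 1.48, 3.95 and 2.73 CPM in PBS libraries. It rose 10.3-fold in Lipo-TriTE and 12.7-fold in Lipo-BiTE tumours (edgeR quasi-likelihood, adjusted p = 0.00075 and 0.00099), and the treated groups overlapped.

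Tnfsf9, the ligand of 4-1BB, had 12.2, 25.5 and 16.8 CPM in Lipo-TriTE libraries, 29.1, 32.5 and 34.7 CPM in Lipo-BiTE libraries and 19.8, 28.9 and 25 CPM in PBS libraries. It was called in no comparison; between Lipo-TriTE and Lipo-BiTE, whose libraries did not overlap, the difference was log2 -0.83 ± 0.26 (edgeR quasi-likelihood, adjusted p = 0.065). The OX40 ligand Tnfsf4 had 2.23, 2.60 and 2.20 CPM in Lipo-TriTE libraries, 2.76, 3.30 and 2.32 CPM in Lipo-BiTE libraries and 1.70, 2.12 and 2.61 CPM in PBS libraries, with overlap in all 3 comparisons. The ligands of these T cell receptors thus had no called rise where both receptors did.

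The death ligands rose in both treatments. Fasl, released and shown by cytotoxic T and NK cells, had 12.6, 9.31 and 11.5 CPM in Lipo-TriTE libraries, 9.29, 7.66 and 3.92 CPM in Lipo-BiTE libraries and 1.41, 1.12 and 1.90 CPM in PBS libraries. It was 7.52-fold higher in Lipo-TriTE and 4.69-fold higher in Lipo-BiTE than in PBS tumours (edgeR quasi-likelihood, adjusted p = 0.00029 and 0.0022). Lipo-TriTE and Lipo-BiTE were not called apart (log2 0.68 ± 0.34, edgeR quasi-likelihood, adjusted p = 0.23).

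Tnfsf10, or TRAIL, had 36.2, 19.4 and 23.0 CPM in Lipo-TriTE libraries, 24.6, 20.4 and 9.43 CPM in Lipo-BiTE libraries and 8.30, 6.48 and 7.77 CPM in PBS libraries. It rose 3.49-fold in Lipo-TriTE and 2.41-fold in Lipo-BiTE tumours (edgeR quasi-likelihood, adjusted p = 0.0029 and 0.029). The Lipo-BiTE rise was not called without any 1 of the PBS libraries or without Lipo-BiTE library 1 or 2, where it was 1.99- to 2.53-fold.

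The death receptors divided. Fas, the receptor of Fas ligand, had 15.5, 16.2 and 28.4 CPM in Lipo-TriTE libraries, 23.5, 19.0 and 7.91 CPM in Lipo-BiTE libraries and 2.44, 2.12 and 1.66 CPM in PBS libraries. It rose 9.64-fold in Lipo-TriTE (log2 3.27 ± 0.43) and 8.09-fold in Lipo-BiTE tumours (log2 3.02 ± 0.42; edgeR quasi-likelihood, adjusted p = 0.00032 and 0.001). Both treated groups were far above PBS and overlapped with each other.

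Tnfrsf10b, the mouse TRAIL receptor, had 13.2, 15.1 and 16.9 CPM in Lipo-TriTE libraries, 27.0, 29.6 and 31.0 CPM in Lipo-BiTE libraries and 30.7, 37.4 and 39.2 CPM in PBS libraries. Lipo-TriTE was 2.38-fold lower than PBS (log2 -1.25 ± 0.17) and 1.94-fold lower than Lipo-BiTE (log2 -0.96 ± 0.17; edgeR quasi-likelihood, adjusted p = 0.00039 and 0.0085). Lipo-BiTE and PBS overlapped (edgeR quasi-likelihood, adjusted p = 0.24). A separate short entry, described in the table as a TNFRSF10B-like protein, held at most 2.08 CPM in a library.

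Tnfrsf21, death receptor 6 of epithelial and neural cells among others, had 71.9, 74.5 and 53.4 CPM in Lipo-TriTE libraries, 117.8, 96.5 and 114.4 CPM in Lipo-BiTE libraries and 110.3, 113.3 and 116.3 CPM in PBS libraries. It was 1.70-fold lower in Lipo-TriTE than in PBS tumours and 1.65-fold lower than in Lipo-BiTE tumours (edgeR quasi-likelihood, adjusted p = 0.0034 and 0.017). Lipo-BiTE and PBS overlapped. In the epithelial and tumour cell list Krt8 and Krt18 were likewise lower in Lipo-TriTE than in PBS tumours, Cdh1 was higher and Epcam was not called; their part in the lower Tnfrsf10b and Tnfrsf21 was not tested.

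Genes of B cell survival were fewer. Tnfrsf13b, or TACI, a receptor of BAFF and APRIL on B cells, had 63.5, 38.1 and 38.4 CPM in Lipo-TriTE libraries, 31.8, 15.7 and 9.87 CPM in Lipo-BiTE libraries and 3.11, 1.59 and 1.96 CPM in PBS libraries. It rose 21.2-fold in Lipo-TriTE and 8.68-fold in Lipo-BiTE tumours (edgeR quasi-likelihood, adjusted p = 0.00013 and 0.0013). The treatments did not overlap, and their 2.44-fold difference was not called (edgeR quasi-likelihood, adjusted p = 0.068), but was in 5 of the 16 alternative fits.

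In Lipo-BiTE libraries TACI thus stood at 9.87 to 31.8 CPM beside a B cell marker sum of 20.2 to 45.6 CPM. The ligand Tnfsf13b, or BAFF, was low, with 1.70, 2.15 and 4.20 CPM in Lipo-TriTE libraries, 3.07, 3.00 and 1.67 CPM in Lipo-BiTE libraries and 1.04, 1.00 and 0.949 CPM in PBS libraries. Its 2.68-fold rise in Lipo-TriTE was called (edgeR quasi-likelihood, adjusted p = 0.04), but not without any 1 of the PBS libraries, without Lipo-BiTE library 1 or 2 or without Lipo-TriTE library 3 (1.91- to 2.70-fold). The replicate block (adjusted p = 0.081), the 2 groups alone (adjusted p = 0.066) and no filter (adjusted p = 0.092) lost that call too. In Lipo-BiTE the fold was 2.58 (edgeR quasi-likelihood, adjusted p = 0.074), called by DESeq2 (adjusted p = 0.036).

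Tnfsf11, or RANKL, which drives osteoclasts and is also made by activated T cells, had 6.59, 5.95 and 7.18 CPM in Lipo-TriTE libraries, 3.54, 2.78 and 2.25 CPM in Lipo-BiTE libraries and 0, 0.177 and 0.119 CPM in PBS libraries. With 341 reads in Lipo-TriTE, 113 in Lipo-BiTE and 5 in PBS libraries, the ratio of counts per total was 62.2 for Lipo-TriTE over PBS (exact 95% counting interval 26.4 to 192.9) and 26.9 for Lipo-BiTE over PBS (11.2 to 84.4). Both passed the edgeR quasi-likelihood test (adjusted p = 7e-05 and 0.00076). Without PBS library 2 the fitted folds moved to 90.8 and 38.8, against 58.6 and 25.5 with it.

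Its receptor Tnfrsf11a, or RANK, had 8.67, 11.5 and 5.75 CPM in Lipo-TriTE libraries, 15.8, 9.91 and 11.8 CPM in Lipo-BiTE libraries and 6.67, 4.59 and 6.76 CPM in PBS libraries. The 2.08-fold rise in Lipo-BiTE tumours (edgeR quasi-likelihood, adjusted p = 0.038) was not called when any 1 of the 6 Lipo-BiTE and PBS libraries was left out, with folds of 1.82 to 2.29, nor without TMM scaling (adjusted p = 0.057) or with the replicate block (adjusted p = 0.069).

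Tnfrsf12a, or Fn14, the receptor of TWEAK on epithelial, stromal and tumour cells, had 52.0, 103.9 and 122.8 CPM in Lipo-TriTE libraries, 77.9, 127.7 and 124.3 CPM in Lipo-BiTE libraries and 139.8, 192.4 and 174.2 CPM in PBS libraries. All treated libraries lay below all PBS libraries. Lipo-TriTE was 1.82-fold lower than PBS (edgeR quasi-likelihood, adjusted p = 0.047), a call lost on leaving out Lipo-TriTE library 1 or 2, Lipo-BiTE library 2 or any PBS library (1.47- to 2.00-fold lower), with RLE size factors (adjusted p = 0.057) and with a minimum of 1 CPM (adjusted p = 0.054). Lipo-BiTE was not called lower (log2 -0.62 ± 0.30, edgeR quasi-likelihood, adjusted p = 0.18), except with the replicate block (adjusted p = 0.047) and with no filter (adjusted p = 0.0068). The TWEAK gene Tnfsf12 had 3.34, 2.53 and 2.65 CPM in Lipo-TriTE libraries, 4.80, 4.13 and 5.59 CPM in Lipo-BiTE libraries and 4.96, 1.65 and 2.02 CPM in PBS libraries, and was called in no comparison. Tnfsf12, Tnfsf13 and Tnfsf13os overlap or adjoin one another on chromosome 11, so their reads may be shared.

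Tnfrsf26, a mouse decoy receptor, had 30.9, 41.0 and 41.4 CPM in Lipo-TriTE libraries, 104.3, 85.0 and 24.2 CPM in Lipo-BiTE libraries and 4.00, 9.95 and 8.24 CPM in PBS libraries. It rose 5.07-fold in Lipo-TriTE and 9.55-fold in Lipo-BiTE tumours (edgeR quasi-likelihood, adjusted p = 0.0048 and 0.0017). As for Tnf, Tnfrsf1b and Tnfsf14, Lipo-BiTE library 1 was high and Lipo-BiTE library 3 low. The summed neutrophil markers, 6675, 3068 and 1271 CPM in Lipo-BiTE libraries 1 to 3, were also highest in library 1 and lowest in library 3, and so were the T, B, NK, plasma and dendritic cell sums. Xbp1, at 1064, 455.0 and 320.6 CPM, set that order of the plasma cell sum, while Sdc1 was lowest in library 1 and highest in library 3. In Lipo-TriTE libraries the neutrophil sums of 1449, 2889 and 4459 CPM did not follow Tnf or Tnfrsf1b. Tnfrsf26 and Tnfsf14, the latter at 21.9, 28.2 and 35.2 CPM, rose from library 1 to 3 in the same order as those sums. The part of these markers in the members' values was not tested.

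The remaining tested members, Ngfr, Tnfrsf19 and Tnfsf13os, were at most 5.62 CPM in any library and were called in no comparison. Of the 6 untested members, Tnfrsf23, a decoy receptor, had 0 counts in every library, which allows up to 0.145 to 0.236 CPM at 3 counts. Its gene model overlaps another protein-coding entry on the same strand, which held 110 reads in all. How reads shared by both were counted is not stated, so that ceiling covers only reads assigned to Tnfrsf23. Cd70, the ligand of CD27, had 10, 31 and 18 reads in Lipo-TriTE libraries, 1, 5 and 5 in Lipo-BiTE libraries and 0 in each PBS library, at least 17.9-fold higher in Lipo-TriTE and at least 4.36-fold higher in Lipo-BiTE than in PBS when 3 counts are set for the PBS group. Tnfsf13, Tnfsf15, Tnfsf18 and Tnfrsf11b held between 0 and 33 reads in a library, too few for the test.

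**Figure D4:**
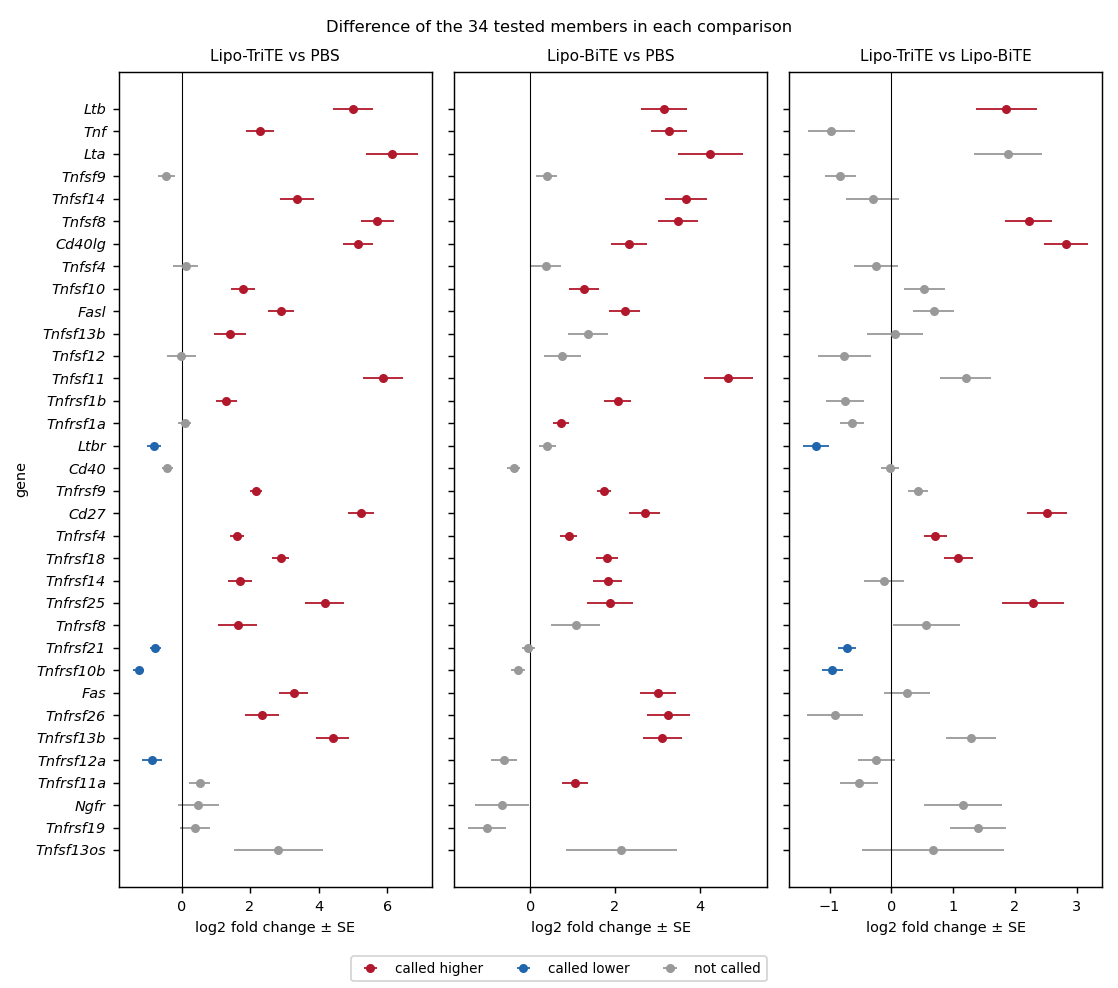
Log2 fold change with its SE for the 34 tested members in Lipo-TriTE over PBS, Lipo-BiTE over PBS and Lipo-TriTE over Lipo-BiTE, from the edgeR fit of 9 libraries; red marks members called higher, blue lower and grey not called, and the panels have separate scales. Most ligands and costimulatory receptors lie to the right in both comparisons with PBS, and Ltbr, Tnfrsf10b and Tnfrsf21 lie to the left in both Lipo-TriTE panels.

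Within a group many members were high or low in the same library. Lipo-BiTE library 1 was the highest of its group for 22 of the 34 tested members and library 3 the lowest for 23. In PBS tumours library 1 was the lowest for 18 members, and in Lipo-TriTE tumours library 1 was the highest for 16 and the lowest for 10. Such counts were not made over all tested genes, so a shift of a whole library cannot be told apart from one of the members. The summed T cell markers were likewise highest in Lipo-TriTE library 1 and Lipo-BiTE library 1 and lowest in Lipo-BiTE library 3 and PBS library 1 of their groups.

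CPM per kb of gene length allows levels to be compared between genes. Ltb averaged 120.5 ± 52.7 CPM per kb in Lipo-TriTE libraries, ahead of Tnfrsf12a at 96.5 ± 38.0, Tnfrsf1a at 66.5 ± 10.5 and Tnfrsf1b at 62.7 ± 7.97 (SD, n = 3). Library 1 set the lead of Ltb, at 181, 95.7 and 84.9 CPM per kb in Lipo-TriTE libraries 1 to 3 where Tnfrsf12a had 54.0, 107.8 and 127.5, so that Tnfrsf12a was the higher in 2 of the 3. The ranges of 1 SD around these means overlapped for all 4. In Lipo-BiTE libraries Tnfrsf12a at 114.2 ± 28.9, Tnfrsf1b at 105.6 ± 51.9 and Tnfrsf1a at 103.6 ± 27.6 CPM per kb could not be ordered beyond their spread, and Ltb stood at 33.2 ± 12.2. In PBS libraries Tnfrsf12a, at 175.3 ± 27.7 CPM per kb, exceeded Tnfrsf1a at 62.4 ± 0.85 and Tnfrsf21 at 31.2 ± 0.82, while Ltb stood at 3.69 ± 2.52.

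The ratio of a ligand to its receptor per length shows the balance of transcripts in a library, without saying which cells hold them. Of 20 ligand and receptor pairs 15 had both partners tested. The ratio of Ltb to Ltbr was 6.43 to 10.1 in Lipo-TriTE libraries, 0.745 to 1.20 in Lipo-BiTE libraries and 0.0467 to 0.209 in PBS libraries. Cd40lg over Cd40 was 0.467 to 0.902 in Lipo-TriTE, 0.0672 to 0.141 in Lipo-BiTE and 0.0135 to 0.0171 in PBS libraries. Both ratios stepped down over the 3 groups with no overlap, as did Tnfsf8 over Tnfrsf8 at 5.5 to 13, 1.94 to 2.30 and 0.130 to 0.606 in Lipo-TriTE, Lipo-BiTE and PBS libraries.

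Other pairs ran the opposite way. Tnfsf9 over Tnfrsf9 was 0.492 to 1.11 in Lipo-TriTE, 1.41 to 2.34 in Lipo-BiTE and 3.21 to 5.42 in PBS libraries. Tnfsf4 over Tnfrsf4 was 0.0477 to 0.0614 in Lipo-TriTE, 0.0812 to 0.132 in Lipo-BiTE and 0.134 to 0.158 in PBS libraries, and Tnfsf13b over Tnfrsf13b was 0.0815 to 0.334, 0.294 to 0.584 and 1.02 to 1.92 in the same groups, with overlap of Lipo-TriTE and Lipo-BiTE. For the 4-1BB and OX40 pairs the receptor rose while the ligand was not called; the 4-1BB ligand outnumbered its receptor per length in every Lipo-BiTE and PBS library. Fasl over Fas was 0.377 to 0.758 in Lipo-TriTE, 0.368 to 0.461 in Lipo-BiTE and 0.491 to 1.06 in PBS libraries, and Lipo-TriTE overlapped both other groups.

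**Figure D5:**
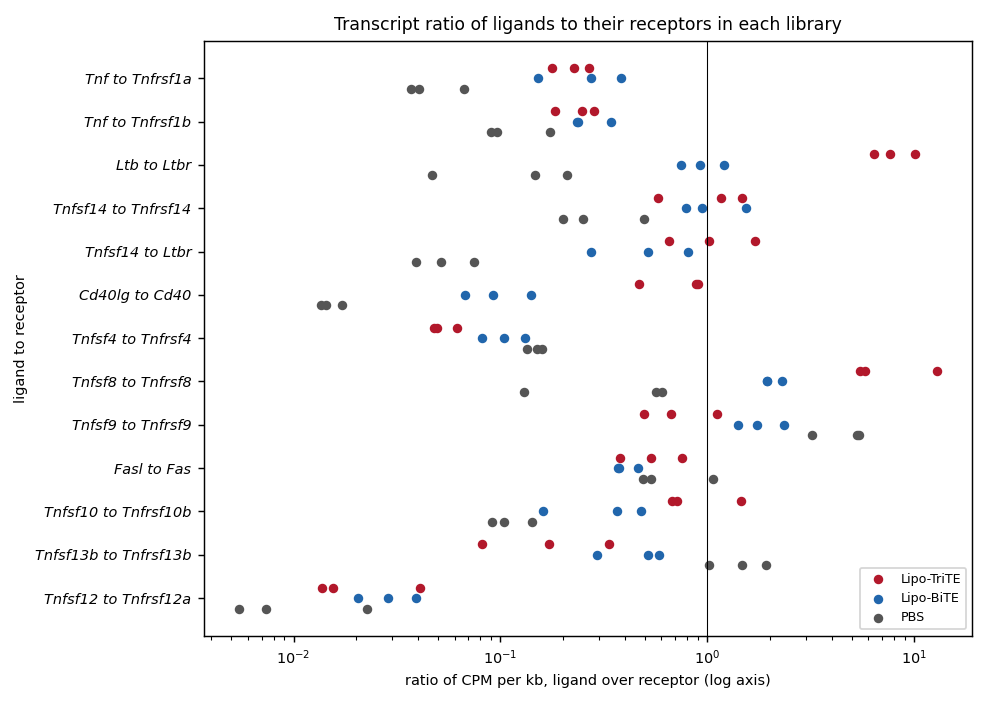
Ratio of CPM per kb of ligand over receptor in each library on a log axis for the 13 pairs with reads for both partners in all libraries; rows are pairs, and points are Lipo-TriTE (red), Lipo-BiTE (blue) and PBS (grey) libraries. Ltb to Ltbr, Cd40lg to Cd40 and Tnfsf8 to Tnfrsf8 are highest in Lipo-TriTE libraries, and Tnfsf9 to Tnfrsf9 is highest in PBS libraries.

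Set beside the T cell markers, the raised members fell on both sides of the markers' median. The 14 T cell markers differed by log2 4.16 to 5.77 between Lipo-TriTE and PBS, with a median of 4.74, and 6 of the 21 raised members exceeded that median: Cd27, Cd40lg, Lta, Ltb, Tnfsf11 and Tnfsf8. Below it Tnfrsf13b and Tnfrsf25, at log2 4.41 and 4.17, still lay within the range of the markers. For Lipo-BiTE over PBS the markers' median was 2.53, and 10 of 21 raised members exceeded it, Tnf, Fas, Tnfsf14, Tnfrsf13b and Tnfrsf26 joining Cd27, Lta, Ltb, Tnfsf11 and Tnfsf8. For Lipo-TriTE over Lipo-BiTE it was 2.08, exceeded by 4 of the 7 higher members, Cd27, Cd40lg, Tnfrsf25 and Tnfsf8. Cd27, counted per 1000 CPM of summed T cell markers, had 32.9, 28.4 and 30.0 CPM in Lipo-TriTE libraries and 20.1, 24.4 and 22.0 CPM in Lipo-BiTE libraries. PBS libraries had 30.8, 13.6 and 19.2 CPM, so that Lipo-TriTE overlapped PBS but not Lipo-BiTE. Other raised members differed in this ratio. Tnfrsf9 had 22.9, 37.5 and 37.5 CPM in Lipo-TriTE, 79.2, 101.3 and 107.8 CPM in Lipo-BiTE and 218.3, 159.4 and 140.5 CPM in PBS libraries. For Tnfrsf4 and Tnfrsf18 the groups stood in the same order. Tnfsf8 went the other way against PBS, at 13.5, 11.4 and 11.2 CPM in Lipo-TriTE and 7.12, 2.39 and 7.98 CPM in PBS libraries. Its Lipo-BiTE values of 9.70, 11.8 and 11.2 CPM overlapped those of Lipo-TriTE. This ratio describes mixed tissue, and other cells that carry these members were not separated.

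Between the treatments fewer members were called than against PBS. The 7 members higher in Lipo-TriTE were 4 costimulatory receptors and 3 ligands. Beside them 14 of 14 T cell, 10 of 10 B cell, 6 of 8 dendritic cell, 4 of 7 plasma cell and 2 of 5 NK cell markers were higher, and their part in the members' differences was not tested. The median log2 difference of Lipo-TriTE from Lipo-BiTE was 2.08 for T cell, 5.79 for B cell, 1.61 for dendritic cell, 1.98 for plasma cell and 0.81 for NK cell markers, against -0.64 for macrophage and monocyte markers and -0.12 for neutrophil markers. The libraries did not overlap for 13 members higher in Lipo-TriTE and 6 lower, where 16.1% and 14.4% of all tested genes did not overlap in these directions. Against PBS, 20 members lay above and 5 below in all Lipo-TriTE libraries (26% and 23.4% of all genes), and 25 above and 3 below in all Lipo-BiTE libraries (22.7% and 19.4%).

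Positions showed clusters of members with unlike responses. Chromosome 4 holds 9 and chromosome 17 holds 8 of the members in the deposited models. On chromosome 6, Cd27 lies 67214 bases from Ltbr and Ltbr 44702 bases from Tnfrsf1a; Cd27 was higher in Lipo-TriTE than in PBS, Ltbr lower, and Tnfrsf1a not called. On chromosome 17, Tnfsf9, Cd70 and Tnfsf14 follow one another with gaps of 53904 and 47921 bases, and of these Tnfsf14 rose while Tnfsf9 was not called. Tnfrsf4 and Tnfrsf18 rose together.

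Genes that act below the receptors were followed in 5 lists of 37 genes, all tested. In Lipo-TriTE tumours 19 (51.4%) rose and 3 (8.11%) fell against PBS, where 18.9% of all tested genes rose and 14.8% fell. In Lipo-BiTE tumours 19 (51.4%) rose and 0 fell, where 13.8% rose and 3.22% fell. Between the treatments 2 (5.41%) were higher and 1 (2.70%) lower in Lipo-TriTE, close to the 4.88% and 5.21% of all tested genes. Among 11 adaptors 5 rose in Lipo-TriTE and 2 in Lipo-BiTE tumours; Traf1, an adaptor of TNFR2 and 4-1BB, rose 5.12-fold in Lipo-TriTE and 3.02-fold in Lipo-BiTE, and Birc3, a ubiquitin ligase bound to TRAF2, 4.10-fold and 3.19-fold (edgeR quasi-likelihood, adjusted p = 0.00013, 0.0018, 0.00047 and 0.0022). Of 8 genes of NF-kappaB kinases and the proteins bound to them 3 rose in each treatment. Ikbkb rose 2.16-fold in Lipo-TriTE and 1.72-fold in Lipo-BiTE, and Map3k14, the kinase of the noncanonical arm, 2.24-fold and 2.60-fold. In Lipo-BiTE the third was Tab2, which encodes a binding partner and no kinase. The Lipo-BiTE calls were lost without Lipo-BiTE library 1 or 2 or PBS library 1 for Ikbkb and without PBS library 1 for Map3k14.

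Of the 5 NF-kappaB subunits 2 rose in Lipo-TriTE and 4 in Lipo-BiTE tumours. Rel, the lymphoid subunit, rose 4.02-fold in Lipo-TriTE and 3.43-fold in Lipo-BiTE. Of 7 inhibitors of NF-kappaB signalling 6 rose in Lipo-TriTE and 7 in Lipo-BiTE tumours. Tnfaip3, the A20 brake on TNF signalling, averaged 233.2 CPM in Lipo-TriTE and 279.3 CPM in Lipo-BiTE against 41.8 CPM in PBS libraries, 5.58-fold and 6.68-fold higher (edgeR quasi-likelihood, adjusted p = 0.00038 and 0.00076). Nfkbia, the inhibitor IkappaB alpha, rose 1.94-fold in Lipo-TriTE and 4.32-fold in Lipo-BiTE, and was 2.23-fold lower in Lipo-TriTE than in Lipo-BiTE tumours (edgeR quasi-likelihood, adjusted p = 0.046). Its libraries overlapped between the treatments, at 281.5, 359.1 and 395.2 CPM in Lipo-TriTE and 1089, 850.4 and 366.4 CPM in Lipo-BiTE libraries. That difference was not called in 12 of the 16 alternative fits, among them those that left out any library but Lipo-BiTE 3, and the rise in Lipo-TriTE was not called in 7, with the replicate block and without Lipo-TriTE library 2 or 3, Lipo-BiTE library 2 or any PBS library.

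Of 6 cell death genes, which include Cflar, an inhibitor of caspase-8, 3 rose in each treatment and 2 fell in Lipo-TriTE. Cflar was among the 3 in Lipo-BiTE and was not called in Lipo-TriTE tumours (edgeR quasi-likelihood, adjusted p = 0.025 and 0.056). The necroptosis kinase Ripk3 rose 6.83-fold in Lipo-TriTE and 8.72-fold in Lipo-BiTE, whereas Mlkl, which RIPK3 phosphorylates, was 1.75-fold lower in Lipo-TriTE than in PBS tumours (edgeR quasi-likelihood, adjusted p = 0.0014, 0.0013 and 0.0034). Of 4 genes of ligand shedding, which act on the ligands, 3 fell in Lipo-TriTE tumours and 1 rose in Lipo-BiTE tumours. Beside these, 14.8% and 13.8% of all tested genes did so. The 1 that rose, Rhbdf2, was 1.63-fold higher in Lipo-BiTE than in PBS tumours and 1.925-fold lower in Lipo-TriTE than in Lipo-BiTE tumours (edgeR quasi-likelihood, adjusted p = 0.032 and 0.016). It was not called in Lipo-TriTE over PBS (edgeR quasi-likelihood, adjusted p = 0.38). Adam17, the protease that releases TNF from the membrane, averaged 209.2 CPM in Lipo-TriTE and 296.6 CPM in PBS libraries, and its partner Rhbdf1 was 2.21-fold lower in Lipo-TriTE than in PBS and 2.26-fold lower than in Lipo-BiTE tumours (edgeR quasi-likelihood, adjusted p = 0.013, 0.0015 and 0.0072). The lower Adam17 was not called without Lipo-TriTE library 1 (adjusted p = 0.051).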

How the data were processed

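RNA from 9 tumour samples was sequenced, 3 for each of Lipo-TriTE, Lipo-BiTE and PBS, with random primers per the labels' protocols. The authors deposited raw read counts per gene as 1 table of 44806 entries, with gene lengths in bases as another column per the file headers. For the aligner, counting tool, strand setting and assembly build, nothing is given in the sources used here. Columns headed untreated were taken as the PBS samples of the same number, since no other group was left; this is an inference. Reads without molecular identifiers are not independent molecules, so intervals and floors cover counting error only.

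Counts were tested in R 4.3.3 with edgeR 4.0.16: filterByExpr kept 16596 genes, TMM scaled the libraries, and the quasi-likelihood F test with robust estimation was fitted to all 9 libraries with group means only. Adjustment followed Benjamini and Hochberg across every gene tested, with calls at an adjusted p under 0.05. Each SE is the log2 fold change divided by the root of F. CPM per kb used the deposited gene length. The procedure was tested on simulated data. Ratios for members with few reads in a group are counts per scaled total with exact 95% intervals, or bounds at 3 counts over the group where it had 0.

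The members, lists, pairs and tests were chosen with earlier results of these data known. Members called in a comparison, or in a ligand and receptor pair with both partners tested, are given in every library. Other genes come from the pathway and marker lists, up to 4 a list by smallest p among those called. Epcam, the genes named to break down the plasma cell and fibroblast sums, and the ratio to T cell markers were chosen after the values were seen. Alternatives were DESeq2 1.42.0, RLE size factors, no TMM scaling, no filter, a minimum of 1 CPM in 3 libraries, only the groups compared, a replicate block and each library left out in turn. Promoters came from RefSeq.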

Additional observations from a re-analysis of the deposited data

How the results depend on the processing

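The 16 alternatives kept the counts of raised members against PBS at 19 to 22 for Lipo-TriTE and 16 to 22 for Lipo-BiTE. Members called lower in Lipo-BiTE than in PBS numbered 1 in place of 0 without TMM scaling, with no filter and with the replicate block. Between the treatments DESeq2 called 11 members higher and 5 lower in Lipo-TriTE, against 7 and 3, and the fit with no filter called 7 lower. Leaving out 1 library gave 3 to 9 higher (4 without Lipo-TriTE library 1, 3 without Lipo-BiTE library 2) and 3 to 7 lower (7 without Lipo-BiTE library 3). The replicate block called 19 higher and 4 lower for Lipo-TriTE over PBS, 18 and 1 for Lipo-BiTE over PBS, and 6 and 4 between the treatments. To look for pairing, each gene's log2 CPM was set relative to the mean of its group, and only these deviations were correlated over the tested genes. The deviations correlated at -0.194 to 0.076 between same-numbered libraries over 9 pairs, and at -0.169 to 0.239 between libraries of unlike number. With 3 libraries in each group these values cannot show whether the numbers pair the samples. Of the members not called between the treatments, Lta was called in 6 of 16 alternatives, Tnfrsf13b and Tnfsf9 in 5, Tnfrsf1a and Tnfsf11 in 3, Tnf and Tnfrsf1b in 2, and Tnfrsf19 and Tnfrsf26 in 1. No member reversed while called in the edgeR fit of 9 libraries. Reversed log2 values near 0 were 0.036 (RLE), 0.038 (DESeq2), 0.022 (1 CPM minimum) and 0.09 (replicate block) for Tnfsf12 in Lipo-TriTE over PBS, and between the treatments 0.015 (RLE, DESeq2, 2 groups alone), 0.022 (1 CPM minimum) and 0.099 (no TMM) for Cd40 and 0.017 (no TMM) for Tnfrsf14. With 1 library left out, Lipo-TriTE over PBS ran from -0.27 to 0.96 for Ngfr, -0.28 to 0.61 for Tnfsf12 and -0.036 to 0.30 for Tnfsf4, and Lipo-BiTE over PBS from -0.10 to 0.035 for Tnfrsf21. Lipo-TriTE over Lipo-BiTE ran from -0.17 to 0.11 for Cd40, -0.51 to 0.063 for Tnfrsf12a, -0.15 to 0.93 for Tnfrsf8, -0.39 to 0.052 for Tnfrsf14, -1.25 to 1.23 for Tnfsf13os, -0.10 to 0.54 for Fas, -0.43 to 0.33 for Tnfsf13b and -0.61 to 0.25 for Tnfsf14. The cause was not tested. Over all genes, scaling by totals alone called 2079 higher and 985 lower in Lipo-BiTE over PBS, against 2283 and 534 with TMM, and 1094 and 457 between the treatments, against 810 and 865; it moved the median log2 to -0.16 and 0.11, against -0.023 and -0.013. With no filter the median for Lipo-TriTE over PBS was 0.13. DESeq2 called 1475 higher and 1204 lower between the treatments. Depth limits members under about 1 CPM, and 6 members had too few reads for a test.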

Other observations

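Members of the superfamily that the naming rule left out were measured too, and they are given as values. Relt, a TNF receptor relative of lymphoid tissue, had 55.7, 41.3 and 36.9 CPM in Lipo-TriTE libraries, 87.9, 33.2 and 23.2 CPM in Lipo-BiTE libraries and 4.44, 4.65 and 4.98 CPM in PBS libraries, a rise of 9.49-fold in Lipo-TriTE and 10.2-fold in Lipo-BiTE tumours (edgeR quasi-likelihood, adjusted p = 0.00058 and 0.00099), the last 6.00-fold without Lipo-BiTE library 1. Eda2r, the receptor of an ectodysplasin isoform, had 13.1, 11.7 and 11.8 CPM in Lipo-TriTE libraries, 18.7, 14.9 and 19.2 CPM in Lipo-BiTE libraries and 38.7, 27.5 and 27.0 CPM in PBS libraries, 2.54-fold lower in Lipo-TriTE and 1.76-fold lower in Lipo-BiTE tumours (edgeR quasi-likelihood, adjusted p = 0.00068 and 0.016); the Lipo-BiTE call was lost without Lipo-BiTE library 2 or PBS library 1.

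An unnamed entry of chromosome 15, positions 85958953 to 85963072 of the deposited models, is described in the table as the BAFF receptor, which B cells need to survive. It had 24.2, 7.54 and 8.02 CPM in Lipo-TriTE libraries, 0.473, 0.300 and 0.363 CPM in Lipo-BiTE libraries and 0, 0.825 and 0.237 CPM in PBS libraries. It was called higher in Lipo-TriTE than in PBS and than in Lipo-BiTE tumours (edgeR quasi-likelihood, adjusted p = 0.0011 and 0.007), while Lipo-BiTE and PBS overlapped. The named BAFF and APRIL receptor gene Tnfrsf13b, in contrast, rose over PBS in both treatments.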
